A study of Mus musculus with 9 samples.

Results

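Transcript levels of 10 genes of the Notch pathway were followed through the differentiation of mouse calvarial osteoblasts. The genes were 3 receptors (Notch1, Notch2 and Notch3), 3 canonical ligands (Jag1, Jag2 and Dll1), the Notch-related transmembrane protein Dner, and 3 target genes (Hes1, Hey1 and Heyl), found by symbol among the 40548 genes of the expression tables. All 10 were present. They were picked with their values in these libraries already known, so their levels and differences below are a description and carry no p-value. A list of 72 other genes of the pathway was set beside them.

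Cells came from the calvaria of C57BL/6 (as labelled) mouse pups of both sexes, aged postnatal days 2 to 3 according to the sample records, with a wider age range in the methods. The methods give the strain as C57BL/6J and the mice as wild type or ColI-GFP reporter animals, and which of these gave the RNA-seq cells is not given in the sources used here. They were grown to confluency and collected undifferentiated at day 0, or after 4 or 7 days in mineralization medium, which contained β-glycerol phosphate and ascorbic acid. From 3 biological replicates per stage, 9 RNA-seq libraries of rRNA-depleted total RNA were made. Mineralized cultures were loosened with collagenase I before trypsin and unmineralized ones with trypsin alone, so stage and dissociation cannot be told apart. The cultures are mixed primary cells, and in such bulk RNA fewer cells of a type and less RNA per cell cannot be told apart.

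Notch receptors are single-pass membrane proteins that are cleaved when a Delta or Jagged ligand on a neighbouring cell pulls on them. The freed intracellular domain enters the nucleus, joins the DNA-binding protein RBPJ and a Mastermind coactivator, and turns on genes of the Hes and Hey families, which encode transcriptional repressors. In the bone lineage the pathway is best known for holding mesenchymal progenitors back from differentiation, with effects that depend on the stage of the cell.

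The libraries held 7741204 to 14013219 reads on genes at day 0, 32820610 to 37306090 at day 4 and 10675858 to 15622755 at day 7, with the lowest total in day 0 replicate 3. Levels are given as RPKM, reads scaled to gene length and to the reads on genes of the library, which allows levels of different genes to be compared approximately. For Notch1 the length implied was 14232 bases, equal to all exonic bases of its gene model. Where cells use shorter transcripts than the model, RPKM understates a gene, which limits the ranks and shares between genes below. Day 0 and day 7 shared a table, and differences between them are on the log2(CPM + 0.5) scale, where CPM is the reads scaled to library size and a difference is the day 7 mean minus the day 0 mean with its standard error (SE) from limma. Day 4 had a table of its own and far deeper libraries, so it was compared by value and not tested. All 6 osteoblast markers were higher at day 7, against 12.6% of all genes tested, though Bglap and Dmp1 reached the mean of 1 CPM needed for testing only through day 7. The summed level of the 6 was 1793 to 2507 RPKM at day 0, 5648 to 6474 at day 4 and 8025 to 10117 at day 7.

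The receptors were led by Notch2 throughout, and each of the 3 was lower in every day 7 library than in any day 0 library. For Notch3 this held only narrowly, with 4.13 RPKM in day 7 replicate 1 against 4.14 in day 0 replicate 1. Jag1 was the main ligand and its libraries overlapped between the stages, whereas Jag2 went from a trace at day 0 to 24.0% of the summed ligand RPKM at day 7. Dner had a day 0 mean 10.2 times its day 4 mean, Hes1 was already higher in every day 4 library, and Hey1 and Heyl stood above both earlier stages at day 7. Of the 10 members, 8 had a mean of at least 1 CPM over the day 0 and day 7 libraries and entered the fit across 12712 genes. Past an adjusted p of 0.05 were 3 with a higher level at day 7 (Hes1, Hey1 and Jag2), where 12.6% of all tested genes were higher, and 3 with a lower level (Dner, Notch1 and Notch2), where 18.6% were lower. Of all calls 40.3% were higher, and 52.1% with median-of-ratios scaling, which moved the median log2 difference of all genes from -0.11 to -0.01 and turned the direction of no member. The 8 had a median log2 difference of -0.31 against -0.11 for all genes tested. Jag2 passed the expression minimum only through day 7.

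**Figure D1:**
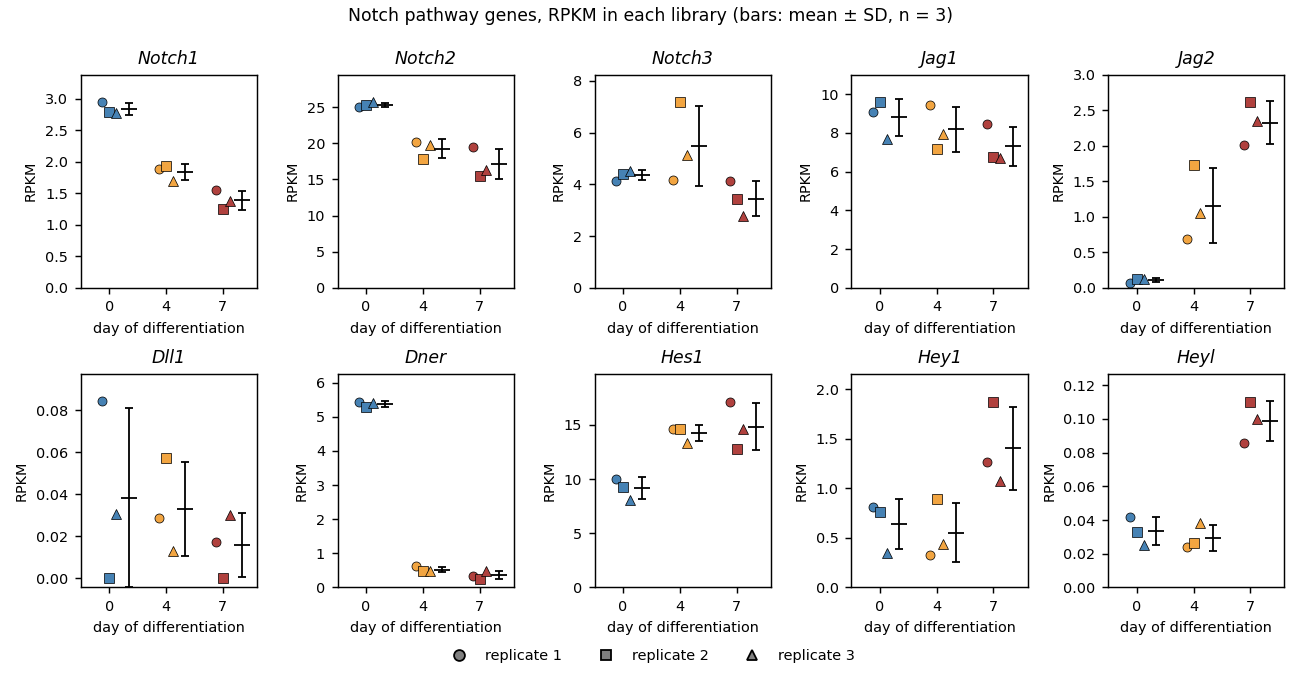
RPKM of each of the 10 genes (vertical axis, linear, a separate scale per gene) in the 9 libraries by day of differentiation (horizontal axis); symbols are the replicates and the bars the mean ± SD of 3 libraries. Dner stands at 5.28 to 5.43 RPKM at day 0 and at 0.617 RPKM or less afterwards, whereas Jag2 goes from at most 0.127 RPKM to between 2.00 and 2.61.

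The windows just upstream of the transcription start are shown for the 4 members whose day 7 libraries all lay below their day 0 libraries in RPKM as deposited. Each is the 250 bases before a RefSeq start on GRCm38.p6, written 5′ to 3′ on the strand of the gene. Capitals mark matches, on either strand, to any of 6 short motifs: TGGGAA (the core that RBPJ binds), CACGTG (E-box), CACNAG (N-box), TGTGGT (a RUNX core), GGGCGG (GC box) and TATAAA (a core promoter element). The E-box is recognised by Hes and Hey proteins and the N-box by Hes proteins. No matches overlapped in these 4 windows.
Dner, chr1:84696222-84696471, minus strand: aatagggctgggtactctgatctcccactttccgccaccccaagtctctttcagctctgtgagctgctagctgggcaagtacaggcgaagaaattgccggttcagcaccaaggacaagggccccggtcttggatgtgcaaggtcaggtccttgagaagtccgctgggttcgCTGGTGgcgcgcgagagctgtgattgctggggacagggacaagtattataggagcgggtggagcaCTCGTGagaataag
Notch1, chr2:26503823-26504072, minus strand: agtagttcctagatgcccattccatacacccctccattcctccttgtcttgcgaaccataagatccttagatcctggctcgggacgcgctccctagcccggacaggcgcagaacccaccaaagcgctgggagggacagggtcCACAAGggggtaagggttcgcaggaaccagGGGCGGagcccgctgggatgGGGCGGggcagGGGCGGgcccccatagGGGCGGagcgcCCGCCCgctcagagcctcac
Notch2, chr3:98013288-98013537, plus strand: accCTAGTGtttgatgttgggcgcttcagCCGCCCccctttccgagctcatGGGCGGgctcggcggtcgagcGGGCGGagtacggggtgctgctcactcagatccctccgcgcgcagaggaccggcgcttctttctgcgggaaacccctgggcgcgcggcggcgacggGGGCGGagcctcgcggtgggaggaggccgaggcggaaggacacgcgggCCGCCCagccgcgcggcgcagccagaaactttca
Notch3, chr17:32166891-32167140, minus strand: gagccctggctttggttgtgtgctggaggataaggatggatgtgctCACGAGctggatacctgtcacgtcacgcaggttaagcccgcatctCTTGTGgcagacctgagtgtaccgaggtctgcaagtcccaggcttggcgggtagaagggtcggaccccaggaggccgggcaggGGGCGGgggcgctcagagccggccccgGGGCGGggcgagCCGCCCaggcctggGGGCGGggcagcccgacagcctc

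The Dner window held 2 N-boxes and no GC box, at 56.8% G and C. The Notch1 and Notch2 windows each held 1 N-box and 5 GC boxes, and the Notch3 window held 2 N-boxes and 4 GC boxes. G and C made up 66.0%, 72.0% and 68.8% of the 3 receptor windows, against a median of 52.4% over all promoters. The table matched 7 of the 10 members, with a pair of starts for Dll1 and so 8 windows. An N-box lay in 4 of these 8 windows, against 36.7% of all 32851 promoter windows, and a GC box lay in 4, against 32.7%. None of the 8 held the RBPJ core, the E-box, the RUNX core or TATAAA, which occurred in 21.6%, 6.02%, 14.0% and 12.4% of all windows. The RefSeq start of Notch1 lies inside the longest GENCODE gene model. The window of Jag2 held 5 GC boxes and 87.2% G and C and is not printed, because it lay wholly within the first exon of the longer GENCODE model. Both Dll1 windows also lay wholly within exons, 1 of them only in exons of the opposite-strand transcript A930024N18Rik. In the Jag1 window 124 bases were exonic. The 8 windows counted above are therefore not all free of transcribed sequence. Such matches describe letters and do not show binding.

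Notch2 (chr3:98013527-98150361, forward strand) was the most abundant of the 10 genes at every stage. Its levels were 25.0, 25.3 and 25.7 RPKM at day 0, 20.1, 17.8 and 19.8 RPKM at day 4, and 19.5, 15.5 and 16.3 RPKM at day 7. In RPKM as deposited, the day 0 libraries were tightly grouped and above all others, while day 4 and day 7 overlapped. The median-of-ratios factors of the day 0 libraries were 1.12, 1.12 and 0.878, so dividing by them widens the day 0 spread. The mean went from 25.3 ± 0.320 RPKM (SD, n = 3) at day 0 to 17.1 ± 2.09 at day 7, a log2 difference of -0.57 (SE 0.15). At day 4, 69.2% of that log2 difference had been reached. Over the alternative settings the difference ranged from -0.67 to -0.40.

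Notch1 (chr2:26457903-26516663, reverse strand), the receptor known for its role in T cell development, was far less abundant than Notch2. It measured 2.94, 2.78 and 2.77 RPKM at day 0, 1.88, 1.93 and 1.70 RPKM at day 4, and 1.55, 1.25 and 1.37 RPKM at day 7. The 3 stages formed separate steps with no overlap between any of them. The log2 difference from day 0 to day 7 was -1.01 (SE 0.17), a day 0 mean 2.04 times the day 7 mean. The Notch2 to Notch1 ratio of RPKM within a library, whose median was 9.07 at day 0, was 10.7 at day 4 and 12.4 at day 7, with no overlap between day 0 (8.51 to 9.28) and day 7 (11.9 to 12.6).

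Notch3 (chr17:32120820-32166852, reverse strand) is best known from vascular smooth muscle and pericytes. Its levels were 4.14, 4.39 and 4.53 RPKM at day 0, 4.16, 7.17 and 5.13 RPKM at day 4, and 4.13, 3.43 and 2.78 RPKM at day 7. All day 7 libraries lay below all day 0 and all day 4 libraries, but the highest day 7 library stood directly beneath the lowest day 0 library. Dividing by the median-of-ratios factors of these libraries (1.00 for day 7 replicate 1 and 1.12 for day 0 replicate 1) reverses that order. The log2 difference of -0.35 (SE 0.17, unadjusted 95% interval -0.69 to -0.01) did not pass the threshold after adjustment over all genes. Markers of pericytes and smooth muscle moved in both directions. Their summed level was 20.6 to 22.6 RPKM at day 0, 72.7 to 93.2 at day 4 and 84.9 to 113 at day 7, but nearly all of it was Cspg4, with means of 20.7, 78.7 and 92.1 RPKM. Of the 7 markers, 4 were tested, and Cspg4 and Myh11 were higher (log2 differences of 2.14 and 2.16). Rgs5, which passed the expression minimum only through day 0, was lower (-1.13), with means of 0.498, 0.293 and 0.173 RPKM at the successive stages. Among the untested markers, Higd1b (0.0789, 0.112 and 0 RPKM) and Vtn (0.0117, 0.0185 and 0 RPKM) had no reads at day 7, and Kcnj8 had 0.101, 0.668 and 0.805 RPKM. Their part in the Notch3 levels was not tested.

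The summed RPKM of the 4 receptors was 32.7 ± 0.368 (SD, n = 3) at day 0, 26.7 ± 0.382 at day 4 and 22.0 ± 2.81 at day 7. The small SD at day 0 belongs to RPKM as deposited and does not hold after dividing by the median-of-ratios factors. Notch2 made up 77.6%, 72.2% and 77.6% of the summed RPKM. The share of Notch1 was 8.67% at day 0 and 6.32% at day 7, and its day 7 libraries (6.13% to 6.69%) all lay below its day 0 libraries (8.37% to 9.10%). Notch3 held 13.3%, 20.5% and 15.6%, with a day 4 spread of 15.8% to 26.5%. Notch4, an endothelial receptor that is no member of the 10, held 0.441%, 0.465% and 0.455%. Endothelial markers were low as well: Tie1 and Emcn had no reads in any library. The summed level of the 7 markers was 0.142 to 0.546 RPKM at day 0, 0.512 to 1.08 at day 4 and 0.979 to 1.79 at day 7. The only tested marker, Esam, was higher at day 7 (log2 difference 2.30), but it passed the expression minimum only through day 7.

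**Figure D2:**
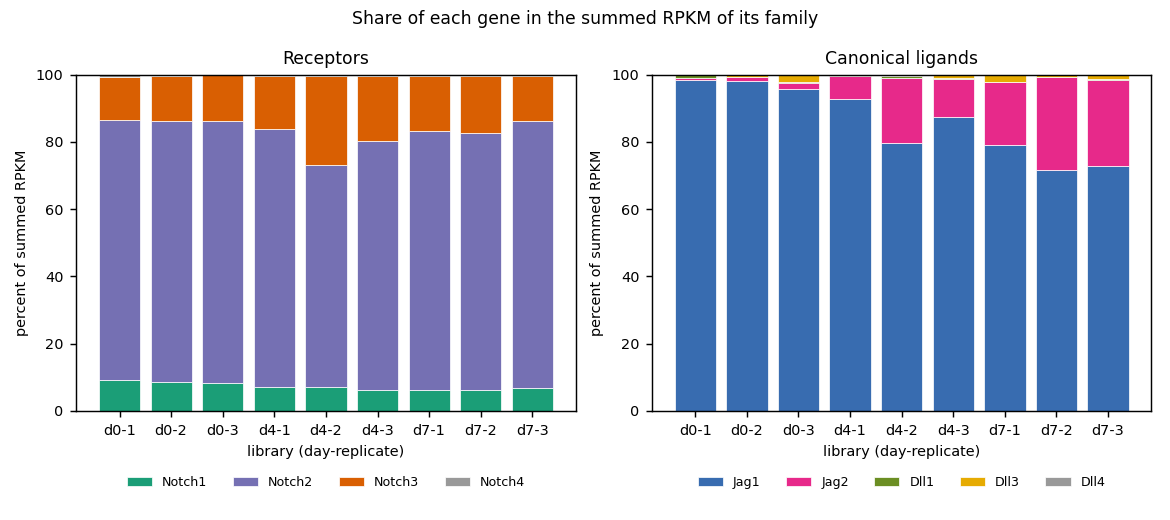
Percent of the summed RPKM of 4 receptors (left) and 5 canonical ligands (right) contributed by each gene, stacked per library (d0-1 is day 0 replicate 1). Notch2 fills most of every receptor bar, and the Jag2 band widens from at most 1.58% at day 0 to between 18.7% and 27.7% at day 7.

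Among the ligands, Jag1 (chr2:137081456-137116644, reverse strand) encodes Jagged1. It measured 9.11, 9.58 and 7.71 RPKM at day 0, 9.47, 7.19 and 7.94 RPKM at day 4, and 8.48, 6.75 and 6.70 RPKM at day 7. The stages overlapped in each pairing. The log2 difference from day 0 to day 7 was -0.27 (SE 0.16), and its unadjusted 95% interval of -0.59 to 0.06 included 0. It was past the threshold, and lower at day 7, only when day 0 replicate 3 was left out.

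Jag2 (chr12:112907819-112929776, reverse strand) encodes the second Jagged ligand. It was at 0.0704, 0.124 and 0.127 RPKM at day 0, each resting on 4 to 6 reads. At day 4 it reached 0.691, 1.73 and 1.05 RPKM, and at day 7 2.00, 2.61 and 2.35 RPKM. The stages followed each other without overlap. The log2 difference from day 0 to day 7 was 3.41 (SE 0.24), the 94th largest of the 12712 genes on this scale, and the ratio of mean RPKM was 21.7. The day 4 mean was already 10.8 times the day 0 mean, although the day 4 libraries spread widely, with a coefficient of variation of 45.7% against a median of 7.53% over all genes.

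Dll1 (chr17:15367354-15376872, reverse strand), a Delta ligand, was at the edge of detection. Its 9 libraries ranged from 0 to 0.0845 RPKM and from 0 to 9 reads, with 6 reads in all at day 0, 15 at day 4 and 3 at day 7. A count of 0 allows up to 3 reads, or 0.0594 RPKM in day 0 replicate 2 and 0.0666 RPKM in day 7 replicate 2, so no difference was detectable at this depth. In addition, 20.5% of its exonic bases were shared with a transcript on the opposite strand, and no source used here states whether reads were counted by strand.

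The summed RPKM of the 5 canonical ligands was 9.03 ± 0.882 (SD, n = 3) at day 0, 9.45 ± 0.660 at day 4 and 9.78 ± 0.821 at day 7, with overlapping libraries. Within it the share of Jag1 went from 97.4% at day 0 to 86.6% at day 4 and 74.5% at day 7. The share of Jag2 was 1.20%, 12.5% and 24.0%. The median ratio of Jag1 to Jag2 RPKM within a library was 77.5 at day 0, 7.58 at day 4 and 2.85 at day 7. The day 0 ratios (60.5 to 129) lay apart from the rest, and the lowest day 4 ratio of 4.16 fell just below the highest day 7 ratio of 4.23. Dll3 and Dll4, the other Delta ligands, had stage means of at most 0.128 RPKM.

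Dner (chr1:84369839-84696221, reverse strand) encodes a membrane protein with Notch-like EGF repeats, described as a non-canonical Notch ligand and best known from neurons. It had 5.43, 5.28 and 5.40 RPKM at day 0, or 200 to 364 reads per library. At day 4 it had 0.617, 0.470 and 0.487 RPKM, and at day 7 0.337, 0.254 and 0.481 RPKM. Day 0 stood far apart, and day 4 and day 7 overlapped. The log2 difference from day 0 to day 7 was -3.60 (SE 0.21), the second largest fall of all genes tested, with a day 0 mean 15.0 times the day 7 mean and 10.2 times the day 4 mean. In RPKM, Dner ranked above Notch3 and Notch1 at day 0 and below both afterwards. Markers of neurons and glia were low at every stage, with a summed level over 5 markers of 0.489 to 0.767 RPKM at day 0, 0.476 to 0.643 at day 4 and 0.365 to 0.577 at day 7. One of them, the untested synaptic gene Syt1, had means of 0.152, 0.0417 and 0.0183 RPKM, and its later libraries all lay below those of day 0. The part of such cells in the Dner levels was not tested.

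**Figure D3:**
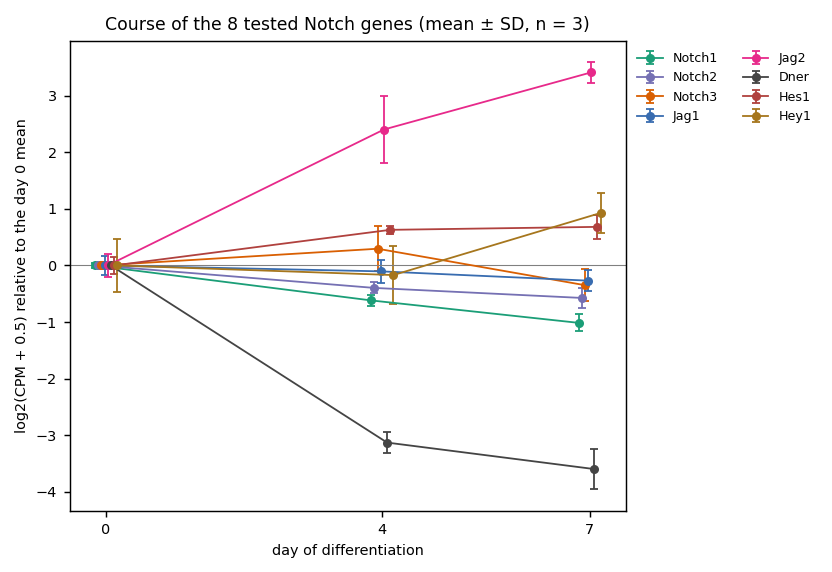
Mean log2(CPM + 0.5) of the 8 genes in the fit, relative to each gene's day 0 mean (vertical axis), against day of differentiation; bars are ± SD of 3 libraries, and day 4 comes from a separate table. Dner reaches 87.0% and Hes1 92.3% of the day 7 difference by day 4, whereas Hey1 departs from its day 0 level only at day 7.

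Of the target genes, Hes1 (chr16:30064384-30067796, forward strand) encodes a basic helix-loop-helix repressor and is the most widely used readout of the pathway, although other signals also act on it. It measured 10.05, 9.32 and 8.05 RPKM at day 0, 14.7, 14.6 and 13.4 RPKM at day 4, and 17.1, 12.8 and 14.7 RPKM at day 7. All later libraries exceeded all day 0 libraries, and day 4 and day 7 overlapped. The log2 difference from day 0 to day 7 was 0.68 (SE 0.17), of which 92.3% was present at day 4.

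Hey1 (chr3:8663359-8667256, reverse strand) encodes a repressor of the Hairy-related family. Its levels were 0.809, 0.759 and 0.352 RPKM at day 0, 0.332, 0.888 and 0.441 RPKM at day 4, and 1.26, 1.87 and 1.07 RPKM at day 7. Day 0 and day 4 overlapped, and every day 7 library was above both. The log2 difference from day 0 to day 7 was 0.93 (SE 0.27), and it was no longer past the threshold when day 7 replicate 2 was left out.

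Heyl (chr4:123233556-123249875, forward strand) encodes a further member of that family and lay below the expression minimum. It had 0.0418, 0.0327 and 0.0253 RPKM at day 0, 0.0238, 0.0262 and 0.0380 RPKM at day 4, and 0.0859, 0.110 and 0.1001 RPKM at day 7. The 3 day 7 libraries were above the rest, on 6 to 8 reads each. The summed reads were 6, 16 and 20 for the successive stages, and the ratio of the depth-scaled rates was 2.81 (exact 95% interval 1.09 to 8.56) for day 7 over day 0 and 3.32 (1.64 to 6.85) for day 7 over day 4, intervals that cover counting error only.

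Of the 10 members, 3 had a higher mean at day 4 than at day 0, which held for 43.9% of 12782 genes with a mean of at least 1 CPM over the 9 libraries. Every day 4 library was above every day 0 library for 2 members (21.6% of genes) and below for 3 (21.9%). From day 4 to day 7, 4 members had a higher mean (40.1%), while 3 were higher without overlap (13.6%) and 2 lower (25.0%). From day 0 to day 7, 4 members had a higher mean (38.2%), and 4 were higher without overlap (17.1%) and 4 lower (25.1%). Dll1 and Heyl lay below that minimum. Of the 8 other members, 3 were higher without overlap from day 0 to day 7 and 2 from day 4 to day 7. A higher mean was held by 3 of the 8 in each of these comparisons, and the remaining counts were unchanged. Day 4 replicate 2 had the highest day 4 level for Notch1, Notch3, Jag2, Hey1 and Dll1, and the day 4 coefficients of variation of Notch3 and Hey1 were 28.1% and 53.2%.

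In RPKM, the order of the members at day 0 was Notch2, Hes1, Jag1, Dner, Notch3, Notch1, Hey1, Jag2, Dll1 and Heyl. Hes1 overlapped with Jag1, and Dll1 with both of its neighbours. At day 4 the order was Notch2, Hes1, Jag1, Notch3, Notch1, Jag2, Hey1, Dner, Dll1 and Heyl, where Notch1 with Jag2, Jag2 with Hey1, Hey1 with Dner, and Dll1 with Heyl overlapped. At day 7 it was Notch2, Hes1, Jag1, Notch3, Jag2, Hey1, Notch1, Dner, Heyl and Dll1, where Notch2 with Hes1 and Hey1 with Notch1 overlapped. Jag2 thus moved from below Hey1 and Notch1 to above both.

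The genes whose pattern over the 9 libraries was most like that of the leading receptor, ligand and target were sought among 9100 genes with a mean of at least 10 CPM, by the root mean square difference of log2(CPM + 0.5) after centring each gene. For Notch2 they were Tgfbrap1 (0.0257) and Eefsec (0.0504), against a spread of Notch2 about its own mean of 0.257. For Jag1 they were Zfp451 (0.0518), Dcp1a (0.0638) and Tomm34 (0.0647), with an own spread of 0.187. For Hes1 they were Abr (0.0678), Erp29 (0.0819) and Copz2 (0.0836), with an own spread of 0.335.

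Most of the remaining pathway genes did not pass the test between day 0 and day 7. Of the 72, 59 were tested, 5 rose, 9 fell and 45 did not pass, by limma with Benjamini-Hochberg adjustment over 12712 genes. The share that passed was 23.7%, against 31.2% of all genes, and the median log2 difference was -0.13 against -0.11. The genes that passed were secreted modifiers, sugar transferases, a protease, ligand ubiquitin ligases and nuclear cofactors, and the count of falls rested on single libraries: leaving out day 7 replicate 3 gave 5, and leaving out day 0 replicate 3 gave 23. The 13 untested genes included Dlk1 and Hes2, which had no reads in any library.

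**Figure D4:**
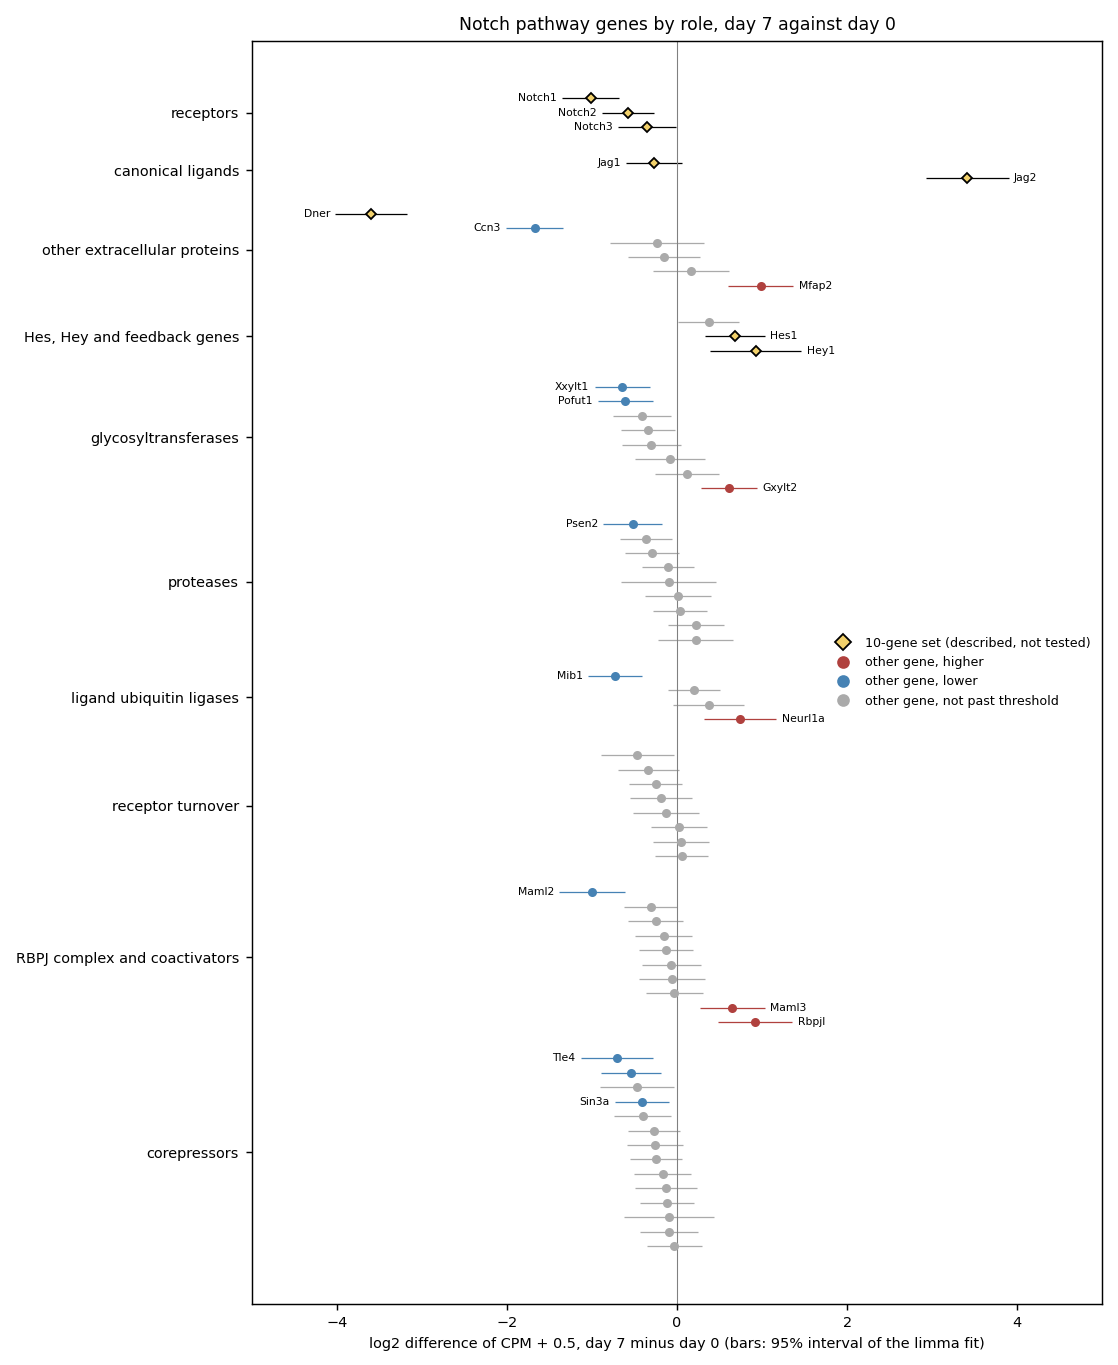
Log2 difference of CPM + 0.5 between day 7 and day 0 (horizontal axis, positive is higher at day 7) for the 8 fitted members (diamonds) and the 59 other tested genes (circles), grouped by role, with unadjusted 95% intervals. Dner at -3.60 and Jag2 at 3.41 lie outside the range of -1.67 to 0.98 spanned by the other genes, and the 3 corepressors that passed lie left of 0.

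Outside the cell, Ccn3 (named Nov in the tables), a secreted CCN protein that can bind Notch, fell from 78.0 ± 16.7 RPKM at day 0 to 37.1 ± 11.0 at day 4 and 24.3 ± 4.62 at day 7 (SD, n = 3; log2 difference -1.67, SE 0.16, limma adjusted p = 8.57e-12). Mfap2, a microfibril protein, rose from 7.22 ± 1.30 to 14.7 ± 2.27 RPKM (log2 difference 0.98, limma adjusted p = 5.24e-05), with a higher level of 20.2 ± 2.27 RPKM at day 4. Dlk2, Mfap5 and Egfl7 did not pass.

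Among the enzymes that attach sugars to the receptors, 8 of 9 were tested, 1 rose and 2 fell, or 37.5% of those tested against 31.2% of all genes. Pofut1, which adds O-fucose to EGF repeats, fell from 9.92 ± 1.69 to 6.44 ± 0.593 RPKM (log2 difference -0.61, limma adjusted p = 0.00237). Xxylt1 and Gxylt2 both extend the O-glucose glycan with xylose: Xxylt1 fell (log2 difference -0.64, limma adjusted p = 0.00154) and Gxylt2 rose, from 14.6 ± 2.07 to 22.4 ± 3.14 RPKM (log2 difference 0.61, limma adjusted p = 0.00311). The Fringe genes Lfng and Rfng did not pass.

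Of the proteases that cleave the receptors, 9 of 10 were tested and 1 (11.1%) passed, Psen2, a catalytic subunit of γ-secretase (log2 difference -0.52, limma adjusted p = 0.0176), a call that was lost when day 0 replicate 2 or any 1 day 7 library was left out. The most abundant member, the γ-secretase subunit Ncstn, had a log2 difference of -0.37 (limma adjusted p = 0.0642). Ncstn was past the threshold with median-of-ratios scaling, in the count models and without day 0 replicate 3. Mib1, a ubiquitin ligase needed for ligand endocytosis in the sending cell, fell from 28.8 ± 4.67 to 17.2 ± 0.872 RPKM (log2 difference -0.73, limma adjusted p = 2.13e-04). Neurl1a, another ligase of this kind, rose (log2 difference 0.74, limma adjusted p = 0.00543), but not past the threshold without day 7 replicate 1. None of the 8 tested genes of receptor turnover passed, and the most abundant of them, Dtx3, had a log2 difference of 0.02 (limma adjusted p = 0.927).

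Among RBPJ, its paralogue Rbpjl and the listed coactivators, all 10 genes were tested, 2 rose and 1 fell, or 30.0% against 31.2% of all genes. Rbpj itself did not pass (log2 difference -0.13, limma adjusted p = 0.582). Maml2, a Mastermind coactivator, fell from 2.54 ± 0.382 RPKM at day 0 to 1.65 ± 0.233 at day 4 and 1.22 ± 0.0265 at day 7 (log2 difference -0.999, limma adjusted p = 4.12e-05). Its relative Maml3 rose (log2 difference 0.65, limma adjusted p = 0.00682), a call lost without day 7 replicate 3. Rbpjl, a paralogue of RBPJ, rose from 0.635 ± 0.0427 to 1.29 ± 0.254 RPKM (log2 difference 0.92, limma adjusted p = 7.39e-04). Snw1, the most abundant gene of this group, had a log2 difference of -0.07 (limma adjusted p = 0.809).

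Among 14 corepressors, 3 fell and none rose, so that 21.4% passed against 31.2% of all genes. Tle4 fell by 0.71 on the log2 scale (limma adjusted p = 0.00853) and Sin3a by 0.41 (limma adjusted p = 0.0424). Sin3a was no longer past the threshold with RPKM and without any 1 of 5 libraries, and Tle4 without day 0 replicate 2 or day 7 replicate 3. Ctbp1, the most abundant, had a log2 difference of -0.27 (limma adjusted p = 0.183).

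In the Hes and Hey families, Hes1 and Hes6 together supplied most of the RPKM, with 40.8% and 54.8% at day 0, 49.7% and 44.0% at day 4, and 45.0% and 48.5% at day 7. Hes6, a family member that can antagonise Hes1, had a log2 difference of 0.37 (limma adjusted p = 0.106) and was past the threshold with median-of-ratios scaling and in the count models. Hey2, named after its values were seen, was below the expression minimum. It had 0.196, 0.0984 and 0.101 RPKM at day 0, 0.836, 0.998 and 1.29 RPKM at day 4, and 0.459, 0.587 and 0.326 RPKM at day 7, with no overlap between the stages. On 12 reads at day 0 and 45 at day 7, the ratio of depth-scaled rates was 3.16 (exact 95% interval 1.65 to 6.57, counting error only). Hes3, Hes5, Hes7 and the feedback gene Nrarp stayed at or below a stage mean of 0.123 RPKM.

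Macrophage markers were all higher at day 7 (6 of 6, against 12.6% of all genes tested), though Ptprc and Fcer1g passed the expression minimum only through day 7. The summed level of the 6 was 6.16 to 10.6 RPKM at day 0, 14.7 to 18.0 at day 4 and 14.9 to 18.1 at day 7. The part of such cells in the levels above was not tested. Opposite-strand or overlapping transcripts shared 7.50% and 2.91% of the exonic bases of Notch1, 6.03% of Notch3, 5.02% of Notch2 and 1.61% of Dner. Of all stretches of 50 bases in the transcripts, 3.76% of those of Notch2 and 0.0866% of those of Notch3 also occurred in another gene, and none in the other 8 members.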

How the data were processed

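RNA-seq libraries (3 per stage at days 0, 4 and 7) were grouped by the sample labels. The authors aligned reads with STAR 2.0.4b to Ensembl's mouse assembly (GRCm38) and counted unambiguous reads per gene with featureCounts. They deposited CPM values, scaled to the reads on genes, and RPKM values, in which gene length is divided out as well. Whether counting used strand is not given in the sources used here. Gene lines repeated with equal values were used once. In each library 100% of CPM values were whole multiples of 1 read (tolerance 0.01), which gave the reads. The depth ranges in the report set the precision of low counts.

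The members and lists were chosen with earlier results of these data known. Day 7 was compared with day 0 by limma 3.58.1 (R 4.3.3), with its prior variance following the mean, on log2(CPM + 0.5) over 12712 genes with a mean of at least 1 CPM in the 6 libraries, and 11075 genes with reads were left out. Calls used a Benjamini-Hochberg adjusted p of 0.05. Tested on simulated data, the fit recovered 86.5% of 200 genes changed 2-fold between day 0 and day 7 among 12712, and called 6 unchanged genes. The simulated reads had the same dispersion for every gene and no composition difference between libraries, so this is not the power in these data. Replicates of a stage differed beyond counting noise (chi-square per degree of freedom 12.7 to 222). All members, every pathway gene past the threshold, the most abundant gene of each role, marker genes and the 3 nearest patterns were named. A few genes that this rule names are not reported here. Alternatives were pseudocounts of 0.1 and 1, 2 other expression minimums, median-of-ratios scaling, RPKM, a robust prior, a replicate block, leaving out each library, and voomWithQualityWeights with TMM, edgeR 4.0.16 and DESeq2 1.42.0 on the recovered reads. Gene positions and overlaps came from GENCODE M21, and promoter windows from RefSeq (GRCm38.p6).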

Additional observations from a re-analysis of the deposited data

How the results depend on the processing

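The 3 receptors, Jag1, Jag2, Dner, Hes1 and Hey1 kept their direction under each alternative that tested them. The members called higher were 1 with a mean CPM of at least 5, where Jag2 and Hey1 were not tested, and Heyl joined them when any reads sufficed. The log2 difference of Jag2 ranged from 2.21 (RPKM) to 4.64 (DESeq2) and that of Dner from -3.88 to -2.78. Over all genes, 2843 were higher with median-of-ratios scaling, 3148 with voomWithQualityWeights, 2818 with edgeR and 2581 with DESeq2, against 1602, and 52.1%, 51.4%, 51.5% and 52.6% of calls were then higher. The genes called lower, 2369, ranged from 1521 (without day 0 replicate 2; 1554 without day 7 replicate 2) to 4699 (without day 0 replicate 3, where 25.8% of calls were higher). The other pathway genes that rose were 8, 9, 8 and 8 in those 4 fits, and 14 fell with voomWithQualityWeights. Leaving out 1 library gave 5 (without day 7 replicate 3) to 23 falls (without day 0 replicate 3, where all calls together held 13 of the 14 made with all libraries). The cause of these shifts was not tested.

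Without 1 library, 3 to 5 members had a higher mean at day 4 than at day 0 (5 without day 0 replicate 1), and 2 to 4 lay lower without overlap at day 7 than at day 4 (4 without day 4 replicate 2 or day 7 replicate 1), against 1 with median-of-ratios scaling. Leaving out a library can only keep or add separations without overlap, so the lower end of 2 was fixed in advance. Values near 0 turned sign. Dtx3 had -0.143 without day 0 replicate 3 and -0.0391 without day 7 replicate 1, in a range of -0.143 to 0.133 over the libraries left out. Snw1 had 0.0422 with median-of-ratios scaling, 0.0240 with edgeR and 0.0269 with DESeq2, and -0.297 to 0.0509 over the libraries left out (0.0509 without day 0 replicate 1, 0.0460 without day 0 replicate 2). Whether equal replicate numbers mark paired libraries is not known. Deviations from the stage mean had correlations of -0.02, -0.18 and -0.44 between day 0 and day 7 libraries of equal number. Such deviations sum to 0 within a stage, so these values cannot settle it. With a replicate block, 5 other pathway genes rose and 8 fell, without Sin3a, the members called were the same, and 1463 genes were higher and 1950 lower.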
